A study of Mus musculus with 9 samples.

Results

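The proteasome is the barrel-shaped protease that degrades proteins marked with ubiquitin. Its 20S core is a stack of rings: alpha subunits (Psma genes) form the outer rings and gate the entrance, and beta subunits (Psmb genes) form the inner rings, in which Psmb6, Psmb7 and Psmb5 carry the caspase-like, trypsin-like and chymotrypsin-like active sites. The 19S cap binds the substrate, removes its ubiquitin and threads it into the core. It is built from a ring of ATPases (Psmc genes) and from non-ATPase subunits of its base and lid (Psmd genes). In cells exposed to interferon-gamma, and constitutively in many leukocytes, Psmb9, Psmb10 and Psmb8 take the places of Psmb6, Psmb7 and Psmb5 and form the immunoproteasome.

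The genes described here are the constitutive subunits, chosen by symbol alone: every gene of a probe set naming 1 gene whose symbol is Psma, Psmb, Psmc or Psmd with a number, without the inducible Psmb8, Psmb9 and Psmb10. The rule found 34 of 17097 genes, 16 of the core and 18 of the cap. Of these, 32 lay above the filter on low signal and were tested (14 of the core and 18 of the cap). The other two, Psma8 of spermatogenic cells and Psmb11 of thymic cortical epithelium, read 3.08 to 3.39 and 2.87 to 3.32 log2 on the arrays, below the filter at 4.16. Psmc6 and Psmd10 had no probe set naming them alone and were not analysed here. Psmc3ip, whose symbol begins alike but which encodes a recombination factor, was left out.

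Levels were measured on 9 Affymetrix arrays of whole bladders of female C57BL/6J mice, as log2 intensities. Tumours were grown by putting MB49 cells, a mouse bladder carcinoma line, into bladders preconditioned with poly-L-lysine. Alpha1-oleate, a complex of an alpha-helical peptide with oleate, was instilled on every other day from day 3 to day 11 at 1.7, 8.5 or 17 mM, and sham-treated tumour mice received PBS, with all tumour bladders taken on day 12. In experiment 1 there were 5 arrays, 1 each of a healthy bladder given PBS, a tumour given PBS and a tumour at each of the 3 doses. In experiment 2 there were 4, with both PBS groups again and bladders labelled healthy and given 17 mM alpha1-oleate, taken after 24 h and after 7 d; the labels give no sacrifice time for the healthy PBS mice. Healthy PBS and tumour PBS thus have 2 arrays each, 1 per experiment, and every other group has 1. The labels do not say whether arrays come from separate or pooled animals, and the p-values reflect the spread among the arrays alone, which may be technical.

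The arrays of the 2 experiments were normalized apart, with medians of 4.42 to 4.45 in experiment 1 and 4.20 to 4.24 in experiment 2, so differences were taken within an experiment. All 8 urothelial and all 6 measured smooth muscle markers were on the array, and healthy bladder carried them (Upk2, a uroplakin, 11.22 and 10.86). The summed leukocyte markers ran from 7.90 to 8.46 in the 2 healthy PBS and the 7 d arrays, and from 10.9 to 12.2 in the tumour arrays. The array labelled healthy, 17 mM, 24 h does not sit with the other healthy arrays in its leukocyte and proliferation markers. Its urothelial sum was 13.5, against 14.1 in healthy PBS and 11.6 in tumour PBS of experiment 2. Its smooth muscle sum was 14.3, against 14.1 and 12.6. Its leukocyte sum was 10.2 and its sum of 5 proliferation markers 9.48, against 5.90 to 6.42 in the other healthy arrays and 10.6 to 12.3 in the tumour arrays. Mki67, a proliferation marker, read 6.83 on it, against 3.41 in healthy PBS and 9.25 in tumour PBS of that experiment, and albumin (Alb) 8.80 against 3.85 and 3.78. Albumin was also high in the tumours given 8.5 and 17 mM (8.83 and 10.15), and read 3.87 in the tumour given 1.7 mM. The array labelled healthy, 17 mM, 24 h is called by its label throughout. In bulk tissue, fewer cells of a type and less RNA per cell cannot be told apart.

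Before the values, the promoters of 4 members are shown: Psma7 and Psmd14, among the members with the largest tumour increases, and the catalytic Psmb5 and Psmb6, which did not pass the tumour test. Each is the 250 bases before the transcription start, 5′ to 3′ on the gene's strand, from RefSeq on GRCm38.p6: Psma7 at chr2:180042465-180042714 (minus strand), Psmd14 at chr2:61711444-61711693 (plus), Psmb5 at chr14:54617996-54618245 (minus) and Psmb6 at chr11:70525107-70525356 (plus). Capitals mark, on either strand, the antioxidant response element core TGACNNNGC, bound by Nrf1 and Nrf2, the CCAAT box CCAAT and the GC box GGGCGG.
Psma7: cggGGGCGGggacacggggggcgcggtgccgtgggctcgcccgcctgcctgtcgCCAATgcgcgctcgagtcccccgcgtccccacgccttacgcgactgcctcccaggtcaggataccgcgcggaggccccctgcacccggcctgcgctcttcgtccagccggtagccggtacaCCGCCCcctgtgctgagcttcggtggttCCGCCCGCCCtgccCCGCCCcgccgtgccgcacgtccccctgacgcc
Psmd14: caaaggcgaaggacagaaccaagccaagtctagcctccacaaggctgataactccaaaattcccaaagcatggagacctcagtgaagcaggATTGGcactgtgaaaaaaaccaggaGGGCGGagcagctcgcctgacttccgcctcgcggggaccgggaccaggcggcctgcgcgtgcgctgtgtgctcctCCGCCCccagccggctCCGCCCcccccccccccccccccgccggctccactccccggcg
Psmb5: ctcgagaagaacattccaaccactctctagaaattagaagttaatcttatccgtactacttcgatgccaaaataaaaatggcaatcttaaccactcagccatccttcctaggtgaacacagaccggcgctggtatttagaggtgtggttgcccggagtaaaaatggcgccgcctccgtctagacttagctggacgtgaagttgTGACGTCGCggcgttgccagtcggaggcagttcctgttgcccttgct
Psmb6: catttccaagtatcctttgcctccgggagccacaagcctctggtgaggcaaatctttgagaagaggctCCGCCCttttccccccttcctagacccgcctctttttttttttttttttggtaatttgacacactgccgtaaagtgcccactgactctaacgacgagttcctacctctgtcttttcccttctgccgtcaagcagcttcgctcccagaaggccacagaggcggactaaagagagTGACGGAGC

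The Psma7 window held 1 CCAAT and 5 GC boxes and the Psmd14 window 1 CCAAT and 3 GC boxes, neither with the antioxidant core. Psmb5 held the antioxidant core 47 to 39 bases before its start and neither other motif, and Psmb6 held it 9 to 1 bases before its start, with 1 GC box. Of the 27 members with a promoter entry, 4 (14.8%) held the antioxidant core, against 11.5% of 27025 mouse genes: Psmb5, Psmb6, Psmd9 and Psmd12. The CCAAT box was in 11 of 27 (40.7%, against 37.5%) and the GC box in 15 of 27 (55.6%, against 35.4%). Among members that rose in the tumours, 2 of 12 held the antioxidant core, 3 of 12 the CCAAT box and 7 of 12 the GC box, and among the others 2, 8 and 8 of 15. These are matches of letters in 1 window and were not tested as sites.

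Whether tumour growth changed the genes of the proteasome was read from sham-treated tumour against healthy PBS bladders, 2 arrays against 2. Most members were somewhat higher in the tumours, and none was called lower. By limma with the experiment as a block and Benjamini-Hochberg adjustment over 11969 genes, 15 of 32 members rose and 0 fell, where 28.6% of all tested genes were called higher and 28.6% lower. Tumour PBS lay above healthy PBS in both experiments for 29 of 32 members, against 43.6% of all tested genes. The 3 that did not were Psmb5, Psmb6 and Psmd5. The differences were small: the median over all 34 members was 0.29 log2 in experiment 1 and 0.34 in experiment 2, beside 0.02 and -0.03 over all tested genes. The calls rest on the block. Without it 0 of the 15 were called, and after quantile normalization of all 9 arrays together, also without the block, 7 of the 15 were called.

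**Figure D1:**
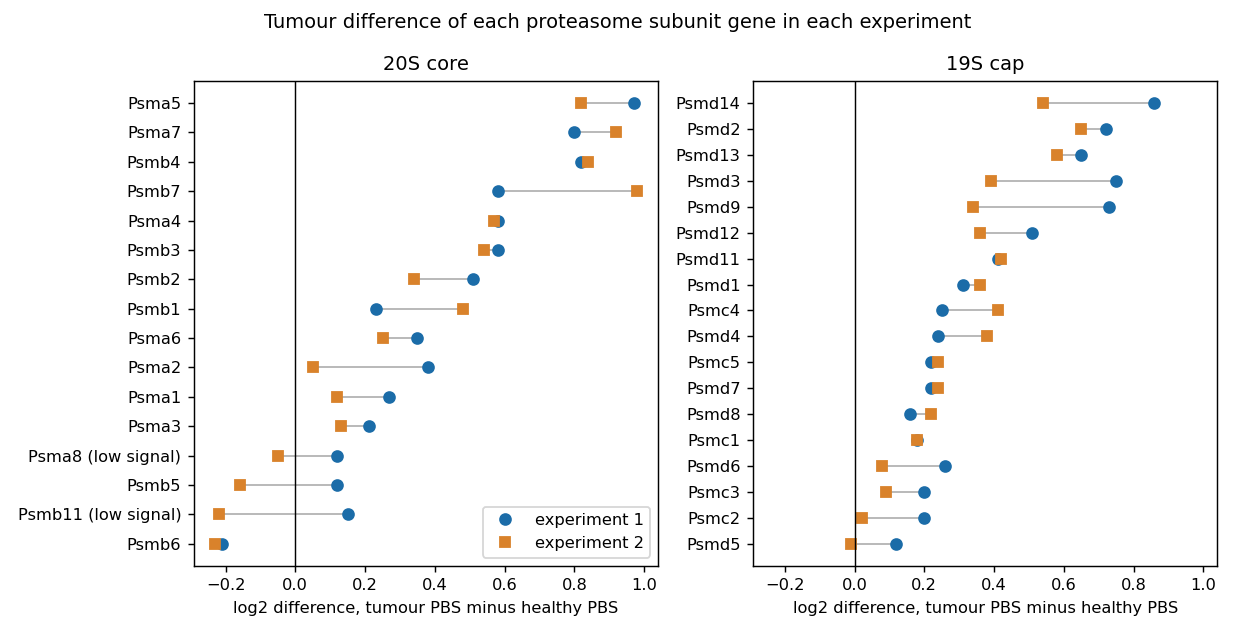
Log2 difference of tumour PBS minus healthy PBS for each of the 34 subunit genes, with circles for experiment 1 and squares for experiment 2, core genes on the left and cap genes on the right, each ordered by the mean of both. Both symbols lie right of 0 for all members except Psmb5, Psmb6, Psmd5 and the dim Psma8 and Psmb11, and Psma5, Psma7 and Psmb4 lie at 0.80 or above in both experiments.

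The catalytic subunits did not move together. Psmb5, the chymotrypsin-like subunit, read 9.79 in healthy PBS and 9.91 in tumour PBS of experiment 1, 9.80, 9.88 and 9.82 in the tumours given 1.7, 8.5 and 17 mM, and in experiment 2 9.40 in healthy PBS, 9.24 in tumour PBS, 9.37 in the array labelled healthy 24 h and 9.36 at 7 d. Its tumour difference was 0.12 in one experiment and -0.16 in the other (limma -0.02, SE 0.12, adjusted p = 0.896), so that it had no settled direction. Psmb6, the caspase-like subunit, read 9.90 in healthy and 9.69 in tumour PBS of experiment 1, 9.67, 9.76 and 9.63 at the rising doses, and in experiment 2 9.14, 8.91, 9.04 and 9.01 in the same order of arrays as for Psmb5. It was lower in the tumour in both experiments (-0.21 and -0.23) and did not pass the test (-0.22, SE 0.09, adjusted p = 0.117). Psmb7, the trypsin-like subunit, read 10.06 in healthy and 10.64 in tumour PBS of experiment 1, 10.62, 10.29 and 10.19 at the doses, and 9.35, 10.33, 9.55 and 9.68 in experiment 2. It rose (0.78, SE 0.14, adjusted p = 0.0214), by 0.58 in experiment 1 and 0.98 in experiment 2, the widest gap between the experiments of any member.

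Of the 7 tested beta subunits, 4 rose. Beside Psmb7 these were the structural subunits Psmb4 (0.83, SE 0.09, adjusted p = 0.00705), Psmb3 (0.56, SE 0.09, adjusted p = 0.0157) and Psmb2 (0.43, SE 0.10, adjusted p = 0.0377). Psmb4 read 10.45 and 11.27 in healthy and tumour PBS of experiment 1, 11.19, 10.88 and 10.72 at the doses, and 9.85, 10.69, 10.06 and 9.77 in experiment 2, so the sham-treated tumour was the highest array of each experiment. Psmb1, also structural, was higher by 0.23 and 0.48 and missed the threshold (adjusted p = 0.0724). The thymic Psmb11 read 3.17 and 3.32 in healthy and tumour PBS of experiment 1, 3.24, 3.11 and 3.25 at the doses, and 3.19, 2.97, 2.87 and 3.11 in experiment 2, all below the filter.

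Of the 7 tested alpha subunits, 3 rose: Psma5 (0.90, SE 0.10, adjusted p = 0.00738), Psma7 (0.86, SE 0.09, adjusted p = 0.00744) and Psma4 (0.58, SE 0.09, adjusted p = 0.0146). Psma5 had the largest mean tumour difference of all members. It read 9.38 in healthy and 10.35 in tumour PBS of experiment 1, 10.20, 9.86 and 9.67 at 1.7, 8.5 and 17 mM, and 8.45, 9.27, 8.69 and 8.46 in experiment 2. Psma7 read 9.74, 10.54, 10.40, 10.18 and 9.91 on the same arrays of experiment 1 and 9.02, 9.94, 9.14 and 9.20 in experiment 2. Both were highest in sham-treated tumour, and in experiment 1 fell array by array with dose without reaching the healthy level. Psma1, Psma2, Psma3 and Psma6, neighbours in the same ring, differed by 0.05 to 0.38 in the 2 experiments and did not pass. Psma8, the germ cell counterpart of Psma7, read 3.27 and 3.39 in healthy and tumour PBS of experiment 1, 3.27, 3.24 and 3.17 at the doses, and 3.15, 3.10, 3.08 and 3.37 in experiment 2, with no array above the filter.

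In the cap, the ATPases that unfold the substrate differed by 0.02 to 0.41. By limma 0 of the 5 measured (Psmc1, Psmc2, Psmc3, Psmc4 and Psmc5) were called, 1 of them at an unadjusted p under 0.05, and the smallest adjusted p was 0.0641 (Psmc4, 0.33, SE 0.10). All 5 were nonetheless higher in the tumour of both experiments, with medians of 0.20 and 0.18. Psmc2 had the smallest mean difference of the ATPases (0.20 and 0.02). It read 10.05, 10.25, 10.22, 10.17 and 10.09 in experiment 1, in the order healthy, tumour PBS and rising dose, and 9.35, 9.37, 9.35 and 9.19 in experiment 2. Its range within experiment 1 was 0.20 log2, all of it between healthy and sham-treated tumour.

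All 3 measured base non-ATPases were higher in the tumours and 2 passed: Psmd2 (0.69, SE 0.09, adjusted p = 0.0106) and Psmd1 (0.34, SE 0.09, adjusted p = 0.0495), the scaffolds on which ubiquitin receptors and shuttle factors dock. Psmd1 lost its call with joint quantile normalization (limma adjusted p = 0.0532) and without the filter (limma adjusted p = 0.0562), over a range of 0.0201 to 0.959 across its alternatives. Psmd2 read 9.03, 9.75, 9.64, 9.43 and 9.22 in experiment 1 and 8.72, 9.37, 8.81 and 8.59 in experiment 2. The sham-treated tumour again stood above the other arrays of its experiment. Psmd4, an intrinsic ubiquitin receptor, was higher by 0.24 and 0.38 and did not pass.

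The lid holds Psmd14, the deubiquitinase that cuts the ubiquitin chain off the substrate, and 5 of its 8 members rose: Psmd14 (0.70, SE 0.12, adjusted p = 0.0206), Psmd13 (0.62, SE 0.09, adjusted p = 0.0133), Psmd3 (0.57, SE 0.13, adjusted p = 0.0375), Psmd12 (0.44, SE 0.10, adjusted p = 0.0338) and Psmd11 (0.42, SE 0.09, adjusted p = 0.0299). Psmd14 read 9.56, 10.42, 10.27, 10.04 and 9.88 in experiment 1 and 9.52, 10.06, 9.61 and 9.31 in experiment 2, where the 7 d array was the lowest of the 4. Psmd3 read 8.25, 9.00, 8.91, 8.67 and 8.44 in experiment 1 and 7.90, 8.29, 7.91 and 7.91 in experiment 2, so its tumour difference was 0.75 in the first and 0.39 in the other. The structural subunits Psmd6, Psmd7 and Psmd8 differed by 0.08 to 0.26 and did not pass. The 2 assembly chaperones of the cap, which leave it when it is complete, parted: Psmd9 passed narrowly (0.54, SE 0.14, adjusted p = 0.0480) and Psmd5 did not (0.06, SE 0.09, adjusted p = 0.653). Psmd9 read 7.10, 7.83, 7.81, 7.36 and 7.13 in experiment 1 and 6.89, 7.23, 6.79 and 6.78 in experiment 2. Psmd5 read 8.28, 8.40, 8.49, 8.14 and 8.13 in experiment 1 and 7.68, 7.67, 7.47 and 7.63 in experiment 2, with the tumour and healthy PBS arrays of experiment 2 only 0.01 apart.

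Probe sets did not always give the same answer. Of the members, 11 had several probe sets naming them alone. For Psmd11 the 3 probe sets above the filter gave mean tumour differences from -0.09 to 1.01, around the 0.42 of the one used. The mean of all its probe sets (0.23) did not pass. Another bright probe set of Psmd11 differed by -0.51 at 17 mM from sham-treated tumour, where the one used gave -0.15. It fell in order of dose, which the one used did not. Against healthy PBS it gave 0.57 at 24 h and 0.43 at 7 d, where the one used gave 0.17 and -0.05. The other 2 probe sets of Psmd9 lay below the filter, and with the mean of all 3 (0.15) Psmd9 did not pass, nor did it without the filter on low signal (limma adjusted p = 0.0605; 0.0283 to 0.851 across its alternatives). The probe sets above the filter of Psma7 (0.86 to 0.91), Psmb3 (0.55 to 0.56), Psmc4 (0.33 to 0.34), Psmd4 (0.12 to 0.31), Psmd6 (0.17 to 0.30) and Psmd7 (0.10 to 0.23) had 1 direction, and 1 more of Psmd7, below the filter, gave -0.20.

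The ranges of core and cap overlapped widely. In experiment 1 the median tumour difference was 0.37 in the core and 0.26 in the cap, and in experiment 2 0.30 and 0.35, so that the core minus cap median was 0.11 in one experiment and -0.06 in the other. These values depended on the members counted. Over those above the filter the core median was 0.45 in experiment 1 and 0.41 in experiment 2, and the core stood above the cap in both, by 0.19 and 0.06. The spread within each was wider than the gap between them, from -0.23 to 0.98 in the core and from -0.01 to 0.86 in the cap over both experiments. Across the 32 tested members, the differences in the 2 experiments correlated at Pearson r = 0.81 and Spearman rho = 0.81, beside 0.96 and 0.95 over all tested genes. The genes share the same 4 arrays, and the values are descriptions.

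**Figure D2:**
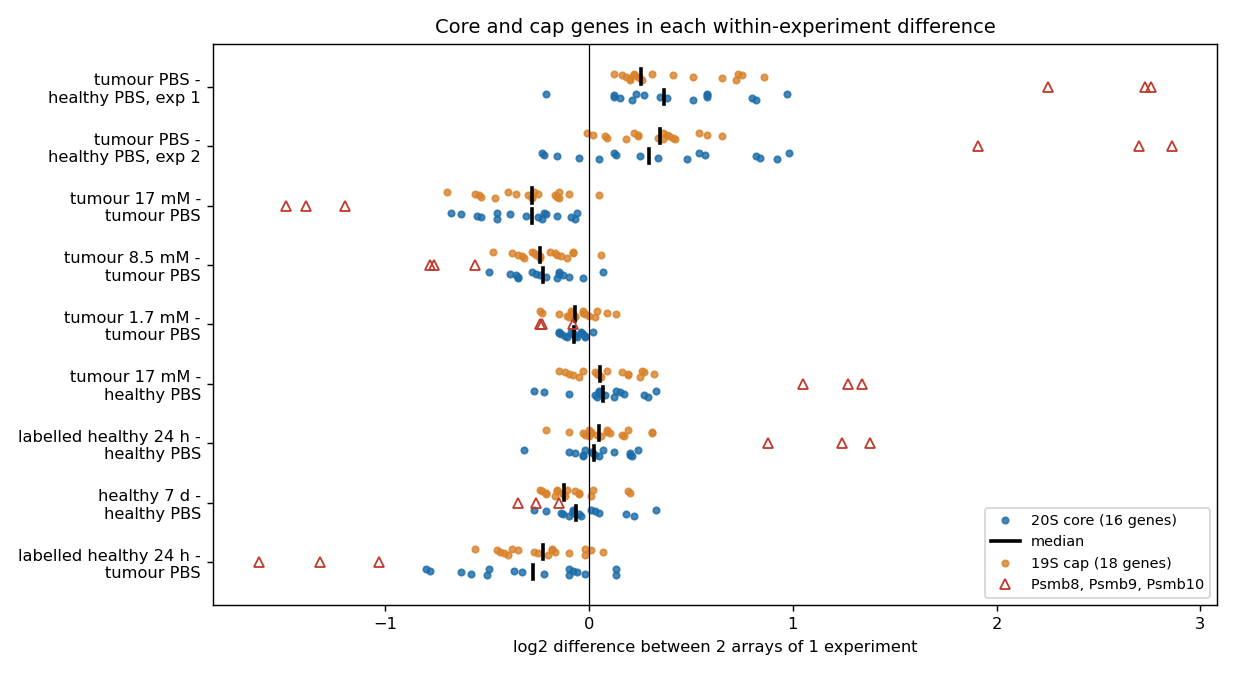
Each point is a gene's log2 difference between 2 arrays of 1 experiment, with blue points for the 16 core genes, orange points for the 18 cap genes, black bars for their medians and open triangles for the inducible Psmb8, Psmb9 and Psmb10. Core and cap medians lie within 0.11 of each other in each of the 9 differences, and in both rows of tumour PBS minus healthy PBS and in that of tumour 17 mM minus tumour PBS the triangles lie beyond every constitutive member.

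The other genes of the pathway are given from lists named with earlier results known. The inducible subunits Psmb8, Psmb9 and Psmb10 and the genes of an activator induced with them, Psme1 (1.22 and 1.24) and Psme2 (1.38 and 1.39), all rose, 5 of 5. Psmb8 was higher in the tumours by 2.73 and 2.70, Psmb9 by 2.76 and 2.86 and Psmb10 by 2.25 and 1.91. The corresponding differences of Psmb5, Psmb6 and Psmb7 were smaller by 2.61 and 2.86, 2.97 and 3.09, and 1.67 and 0.93. Of the other activators, Psme3 of the nuclear proteasome rose (0.82 and 1.17) and the inhibitor Psmf1 did not (-0.14 and 0). Among 5 assembly factors 4 rose, led by Psmg4 (0.81 and 0.64), Psmg1 (0.70 and 0.42) and Pomp (0.67 and 0.65), whose product escorts the maturing core, while Psmg2 read -0.23 and -0.21. Of 10 measured genes on a list of cap-bound proteins 5 rose and 1 fell. The shuttle factor genes Ubqln1, Ubqln2, Ubqln4 and Rad23b were not called either way. The deubiquitinases Uchl5 (0.94 and 0.82) and Usp14 (0.78 and 0.92) and the cap-bound thioredoxin Txnl1 (0.84 and 0.88) rose, and the adaptor Ecpas fell (-1.34 and -1.07).

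Among 5 measured genes acting in the transcription of proteasome genes, 1 rose and 2 fell. Nfe2l2 encodes Nrf2, which binds the antioxidant response element, and its transcript fell in the tumours (-1.61 and -1.45). Ngly1, the enzyme that removes sugars from Nrf1 on its way to activity, fell (-0.80 and -1.02). Nfe2l1, the gene of Nrf1 itself, read 0.15 and 0.42 higher and did not pass, and Nploc4, a cofactor of the segregase that extracts Nrf1 from the membrane, rose by 0.48 and 0.42. Of 6 genes of ubiquitin and its E1 enzymes only Uba6 had a probe set naming it alone, and it lay below the filter.

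**Figure D3:**
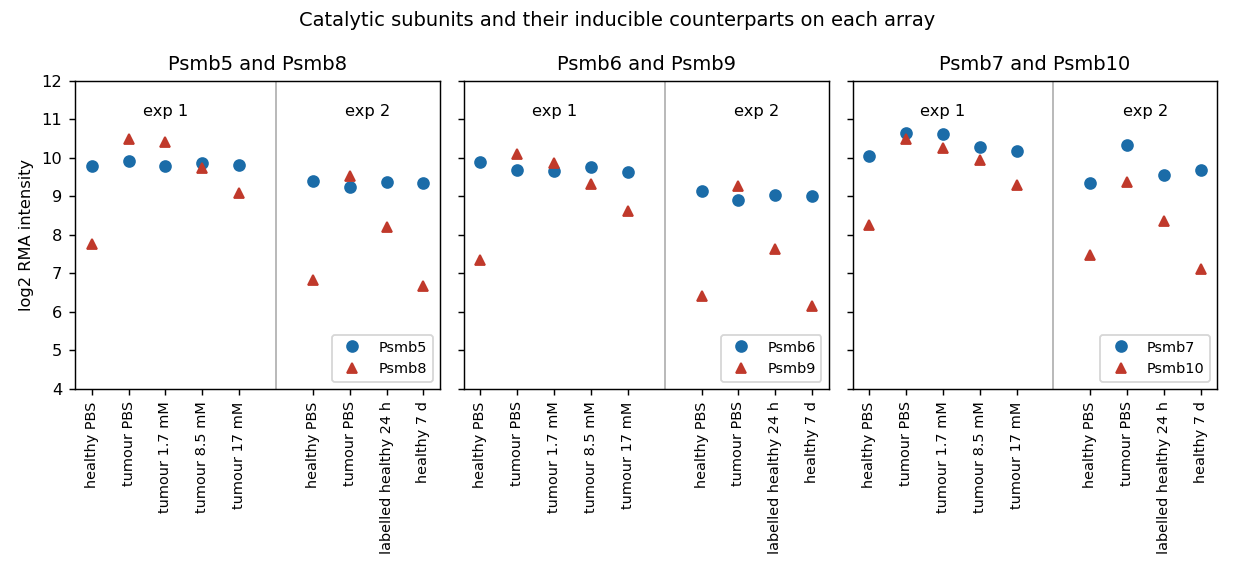
Log2 intensity on each of the 9 arrays of each catalytic subunit (circles) and of the inducible subunit that replaces it (triangles), with experiment 1 left and experiment 2 right of the grey line in each panel; the levels of different probe sets are not comparable, only their changes. The triangles rise by 1.91 to 2.86 from healthy to tumour PBS and fall with dose, while Psmb5 and Psmb6 stay within 0.27 of their healthy PBS level in each experiment.

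Cell type markers moved in the same comparison. All 8 urothelial and all 6 smooth muscle markers fell in the tumours, 7 of 8 leukocyte markers and 5 of 5 proliferation markers rose. Of the tested markers of other lists, 2 of 5 fibroblast, 2 of 2 skeletal muscle, 1 of 4 hepatocyte and 1 of 1 kidney markers fell. Of 3 endothelial markers 1 rose. The summed kidney markers were 9.87 and 9.55 in healthy PBS and 6.39 and 6.60 in tumour PBS. They were 7.80 and 6.51 in the arrays labelled healthy 24 h and 7 d. The summed proliferation markers were 6.42 and 5.90 in healthy PBS and 12.3 and 11.5 in tumour PBS, and the leukocyte sums 8.46 and 7.90 against 12.2 and 11.4. The part of these markers in the subunit differences was not tested.

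Whether alpha1-oleate changed the subunits in tumours was read over 3 doses, with 1 array each. Nearly all members were lower at 17 mM than in the sham-treated tumour of experiment 1, 31 of the 32 tested, beside 6530 of 11969 tested genes. They were lower by little: the median over all 34 was -0.28, and -0.28 in the core and in the cap alike, beside -0.06 over all tested genes. By limma Psma7 (-0.66, SE 0.12, adjusted p = 0.0448) and Psma5 (-0.64, SE 0.13, adjusted p = 0.0492) fell and no member rose, so 2 of 32 were called lower, where 10.6% of all tested genes were called lower and 15.7% higher. In the fit, both tumour PBS arrays stand for the sham-treated tumour and the single treated array is assumed to vary like the PBS groups. In all 10 members had an unadjusted p under 0.05, and the share of all tested genes at that level is not given here. The count depended on the settings, from 0 without the block or without the filter on low signal to 6 with joint quantile normalization.

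The largest differences at 17 mM in the cap were those of the chaperone Psmd9 (-0.70) and the lid subunit Psmd3 (-0.56), which did not pass (adjusted p = 0.103 and 0.143). With Psma5 (-0.68) and Psma7 (-0.63), Psmd9 was 1 of 3 members at least 1.5-fold lower than in the sham-treated tumour, beside 16.3% of all tested genes. At the other end, Psmb6 (-0.06) and Psmb11 (-0.07) in the core and Psmd7 (0.05) and Psmd8 (-0.10) in the cap differed by at most 0.10. Psmd7, a structural partner of Psmd14 in the lid, read 8.77, 8.99, 9.03, 9.05 and 9.04 in experiment 1, the healthy array being the lowest, and 8.22, 8.46, 8.53 and 8.42 in experiment 2. Psmd8, a lid subunit that helps to place the lid on the base, read 9.90, 10.06, 10.09, 9.98 and 9.96 in experiment 1 and 9.12, 9.34, 9.16 and 9.14 in experiment 2. At no dose did either differ by more than 0.10 from the sham-treated tumour.

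At 8.5 mM the members' median was -0.24 and at 1.7 mM -0.07, beside -0.06 and -0.01 over all tested genes. At 8.5 mM limma called 0 of 32 members (smallest adjusted p = 0.108, 3 at an unadjusted p under 0.05), where 11.0% of genes were called higher and 4.65% lower. At 1.7 mM limma called 0 (smallest adjusted p = 0.474, 0 at an unadjusted p under 0.05), where 0.0% of all genes were called higher. The share of genes called lower at 1.7 mM is not given here. Of the 32 members, 21 fell in order from PBS through 1.7 and 8.5 to 17 mM, beside 21.2% of all tested genes. The 11 that did not were Psma4, Psmb5, Psmb6, Psmc1, Psmc4, Psmc5, Psmd1, Psmd5, Psmd7, Psmd8 and Psmd11. Psma5, for example, differed from the sham-treated tumour by -0.15, -0.49 and -0.68 at the 3 doses, and Psmd14 by -0.15, -0.38 and -0.54.

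**Figure D4:**
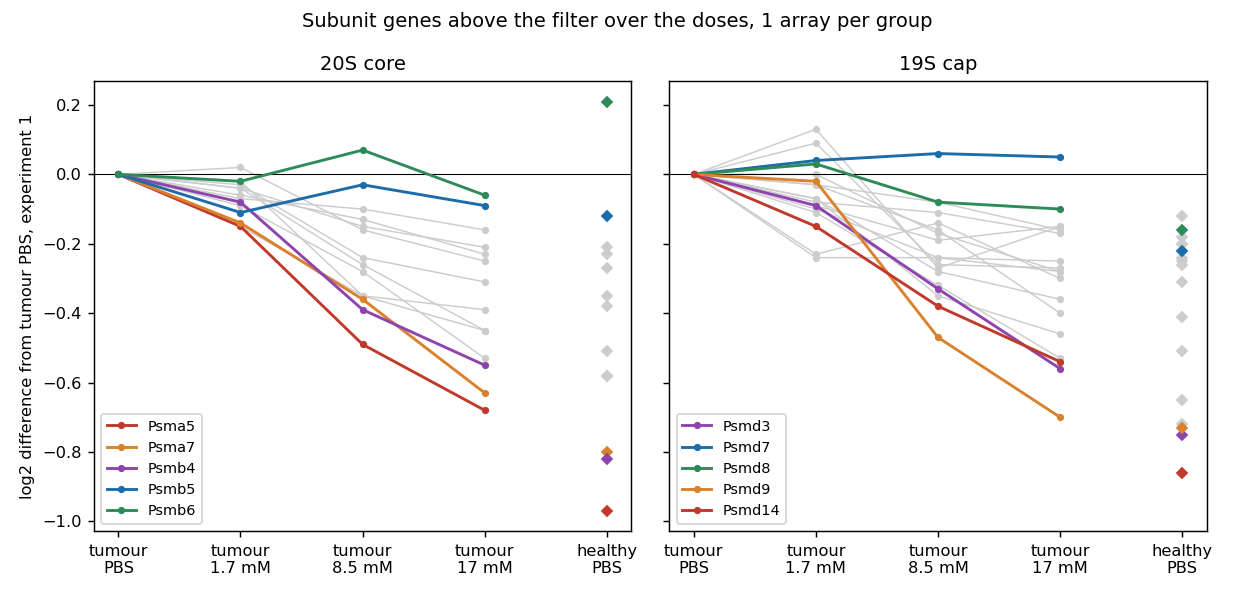
Log2 difference of each tested subunit gene from the tumour PBS array of experiment 1 over the 3 doses, with healthy PBS as diamonds, core on the left and cap on the right; 5 genes of each are coloured and the rest are grey. Most lines fall towards the diamonds, those of Psma5 and Psma7 to -0.68 and -0.63 at 17 mM, while Psmb5, Psmb6, Psmd7 and Psmd8 stay within 0.11 of 0.

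Whether the members lower at 17 mM were those higher in tumours was read across experiments, so that no array was shared. The tumour difference of experiment 2 and the 17 mM difference of experiment 1 correlated across the 32 tested members at Pearson r = -0.71 and Spearman rho = -0.70, beside -0.87 and -0.87 over all tested genes. Of the members 5 rose by 1.5-fold or more in experiment 2 (Psma5, Psma7, Psmb4, Psmb7 and Psmd2). They had a median of -0.55 at 17 mM in experiment 1, from -0.68 to -0.45, and the other 27 one of -0.27, from -0.70 to 0.05. Members are not replicates, and these values carry no test.

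Against the healthy PBS bladder of its experiment, the tumour given 17 mM had a median difference of 0.06 over the 34 members, beside 0.01 over all tested genes. By limma 0 of 32 members were called (smallest adjusted p = 0.177, Psma4 at 0.33, SE 0.12; 0 at an unadjusted p under 0.05), where 2.61% of genes were called higher and 0.368% lower. A difference that misses the threshold does not show equal levels. All 8 lid members were still above healthy, by 0.05 to 0.32, and 4 of 5 ATPases were below it, from -0.10 to -0.03. The inducible Psmb8 and Psmb9 were still higher than in healthy bladder (1.33, SE 0.12, adjusted p = 0.0459, and 1.30, SE 0.12, adjusted p = 0.0472), with differences from the sham-treated tumour of -1.39 and -1.49 in experiment 1.

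In the other lists at 17 mM, all 5 inducible and activator genes fell, with differences in experiment 1 of -1.20 for Psmb10, -0.73 for Psme2 and -0.70 for Psme1. Of the assembly factors 1 fell (Psmg4, -0.74), and of the cap-bound proteins 2 fell (Txnl1, -0.75, and Usp14, -0.61). Of the transcription list 2 rose and 0 fell: Nfe2l2, higher by 0.81, and Ngly1, higher by 0.74. Neither the activator Psme3 nor the inhibitor Psmf1 was called. In the same comparison 7 of 8 urothelial and 6 of 6 smooth muscle markers rose, 5 of 5 proliferation markers and 3 of 8 leukocyte markers fell, and 4 of 4 tested hepatocyte markers rose. In that order, their summed levels at 17 mM were 13.8, 14.9, 10.6, 10.9 and 10.8, against 12.2, 13.3, 12.3, 12.2 and 6.38 in sham-treated tumour. Their part in the subunit differences was not tested.

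Bladders labelled healthy and given 17 mM were compared with healthy PBS to ask whether the agent changed the subunits without a tumour. The 24 h array carried proliferation and leukocyte transcripts, so it may not stand for a bladder without a tumour. No member moved by 1.5-fold at 24 h or 7 d, beside 14.2% and 5.71% of all tested genes. The median over the 34 members was 0.04 in the array labelled healthy 24 h and -0.08 at 7 d, beside -0.04 and -0.04 over all tested genes. With the probe sets used, the highest members at 24 h were Psmc4 and Psmd7 (0.31 each) and the lowest of those tested Psmd5 (-0.21). At 7 d Psmb7 was highest (0.33) and Psma3 lowest (-0.27). By limma 0 members were called at 24 h (smallest adjusted p = 0.274) or 7 d (smallest adjusted p = 0.583), with 0 at an unadjusted p under 0.05 in either. Of all tested genes 0.0% were called higher at either time, and the shares called lower are not given here. For a difference between the effects at the 2 times, limma called no member (smallest adjusted p = 0.218, 1 at an unadjusted p under 0.05). It called none of all tested genes either. The median of this difference over the 32 members was 0.14, from -0.16 to 0.44. With 1 array at each time, equal effects were not shown.

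The array labelled healthy 24 h, which carried proliferation and leukocyte transcripts, was also set against the tumour PBS bladder of its experiment. By limma 4 of 32 members were lower and 0 higher, where 13.6% of genes were called lower and 17.0% higher: Psma7 (-0.77, SE 0.12, adjusted p = 0.0315), Psmb4 (-0.63, SE 0.12, adjusted p = 0.0398), Psma5 (-0.62, SE 0.13, adjusted p = 0.0481) and Psmd2 (-0.58, SE 0.12, adjusted p = 0.0472). The median over all members was -0.24, beside -0.04 over all tested genes. Psmb5 and Psmb6 were 0.13 higher on this array than in the tumour. The inducible Psmb8, Psmb9 and Psmb10 stood above healthy PBS on it by 1.38, 1.24 and 0.88, and did not pass against healthy PBS (adjusted p = 0.0710, 0.0799 and 0.144 by limma), while at 7 d they read -0.15, -0.26 and -0.35. Without this array in the fit, the tumour comparison called the same 15 members and the 17 mM comparison 2.

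The response of the members to 17 mM in tumours was also tested against that in bladders labelled healthy, with the same limit on the 24 h array. The median of the difference of the effects was -0.35 with the array labelled healthy 24 h and -0.23 with the 7 d array, more negative in the tumour for 31 and 28 of 32 members. The same values over all tested genes are not given here, so these counts do not show a shift particular to the subunits. By limma 0 members were called in either (smallest adjusted p = 0.0615 and 0.0976, with 6 and 2 at an unadjusted p under 0.05), while 2288 and 383 of all tested genes were. For the subunits, a different response in tumour and healthy bladder was therefore not shown.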

How the data were processed

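The values are the log2 intensities deposited by the authors for 9 arrays with 45077 probe sets. Per the submitters' processing notes they were made by RMA in Transcriptome Analysis Console 4.0.1.36; a genome build is not given in the sources used here. Sorted values differed by 0.33 log2 between the experiments and by 0.02 within, and same-numbered PBS arrays deviated together (r = 0.65 over 11969 genes), so the experiment was a block.

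Of the probe sets of a gene naming it alone, the one with the highest mean was used. The lowest 30% of genes by mean (below 4.16) were left out, which kept 11969 of 17097. All 9 arrays were fitted with limma 3.58.1 (lmFit and eBayes, R 4.3.3; 1 residual and 2.23 prior degrees of freedom), and genes were called at a Benjamini-Hochberg adjusted p under 0.05. Precision is limited by how few arrays there are. The test was also tried on data simulated from the fitted model with independent noise, and no result here rests on that.

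Members and lists were chosen with earlier results of these data known. Every member is named; values on every array are given for the catalytic, tissue-restricted and chaperone genes and for the 2 highest and 2 lowest members of core and cap in the tumour and 17 mM differences. Values of Psmb4 on every array were added after they were seen. Alternatives were no block, joint quantile normalization, a variance trend, other filters, averaging of probe sets, a minimum change of 1.5-fold, other member sets and single arrays left out.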

Additional observations from a re-analysis of the deposited data

How the results depend on the processing

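The tumour count of 15 members was 0 with no replicate block, 7 with joint quantile normalization and no replicate block (added after the data were seen), 7 with a 1.5-fold requirement, and 0 to 1 without single PBS arrays, where no residual degree of freedom remained with the block and none was used. It was 13 to 20 under the other settings, which shared 13 to 15 of the 15. The 17 mM count of 2 was 0 with no block, alone or with quantile normalization, and with no filter, 4 with the mean of probe sets, 5 with a stricter filter or a variance trend, 6 with quantile normalization, and 0 to 0 without single PBS arrays. The count of 4 on the array labelled healthy 24 h against tumour was 0 with no block, 1 with quantile normalization as well, 2 with no filter and 0 to 1 without single PBS arrays. Without the block, the difference between the experiments is part of the spread of the PBS groups, the only groups with 2 arrays. The causes of the changes in count were not tested. The other counts were 0 under each setting run.

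In experiment 2 the core median was 0.41 over members above the filter or without Psmd5, Psmd9, Psma8 and Psmb11, and the cap median 0.25 with the mean of probe sets. The core minus cap median was then 0.048 with the mean of probe sets, 0.06 above the filter and 0.05 without those 4 genes. Without the block and single PBS arrays, the sign turned for Psmb5 (0.18 and 0.32) and Psmb6 (0.16 and 0.17) in the tumours. At 17 mM it turned for Psma5 (0.40), Psmb5 (0.25, also with all arrays, to 0.58) and Psmb6 (0.33, also with all arrays, to 0.72, and 0.04 with joint quantile normalization). Without the block, each of these values mixes arrays of the 2 experiments, whose deposited values were normalized apart. Within experiment 1 the 17 mM differences of Psma5, Psmb5 and Psmb6 were -0.68, -0.09 and -0.06. With 1 array a dose, the spread between treated bladders is unmeasured.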
